A study of Rattus norvegicus with 6 samples.

Results

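Epithelial cells hold on to each other through adherens junctions and desmosomes, and the transcripts of 10 core proteins of these contacts were followed in rat RUCA-I cells with and without miR-203. The genes were chosen by name, as Cdh1, Ctnna1, Ctnnb1 and Ctnnd1 of the adherens junction, Jup of both contacts, and Dsp, Dsg2, Dsc2, Pkp3 and Perp of the desmosome. All 10 were found among the 26459 tested rows of the deposited gene table, which holds 26751 rows in all. Where a symbol had several rows, the row with the longest locus was used. RUCA-I is an endometrial adenocarcinoma line from the Lewis rat strain, grown without treatment. One group was 3 batches of wild-type (WT) cells and the other was 3 miR-203 -/- knockout (KO) lines, each generated independently. The table gives 1 value per gene and group, in FPKM (sequenced fragments per kilobase of transcript length and adjusted for library depth), in which the 3 samples of a group are pooled. Values therefore carry no SD, and the only test against the spread between samples is the authors' own Cuffdiff test. WT samples are batches and KO samples are separate lines, so effects of the lost microRNA and of making the lines cannot be told apart. The pooled values hold no read depth per sample. In bulk RNA, fewer cells of a type and less RNA per cell cannot be told apart.

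In an adherens junction, the outer part of a cadherin such as E-cadherin binds the same cadherin on the next cell, and its tail carries p120-catenin and beta-catenin. Alpha-catenin links beta-catenin to actin. In a desmosome, the desmosomal cadherins (desmogleins and desmocollins) bind plakoglobin and plakophilins, and desmoplakin ties these to keratin filaments. Beta-catenin that is not bound to cadherin also serves as the coactivator of Wnt signalling. miR-203 is a microRNA of stratified epithelium and is known there as a repressor of p63, a transcription factor. A microRNA pairs with its targets mainly through its seed, bases 2 to 8, in capitals below. The 2 mature forms are given because they are what the KO lines are labelled as lacking (RefSeq, GRCr8, chromosome 6, + strand, 137020718 to 137020738 and 137020756 to 137020777). No tested row stood under a miR-203 symbol, so their loss rests on the labels.
rno-miR-203a-5p: aGUGGUUCuuaacaguucaac
rno-miR-203a-3p: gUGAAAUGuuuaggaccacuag

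Epithelial markers were abundant, and the few markers of other cell types with a tested row were near 0. Epcam, an epithelial adhesion molecule, stood at 501 FPKM in WT cells and 419 in KO cells, and 9 of 10 epithelial markers had a tested row, from 7.95 to 460 FPKM in the mean of both groups. Of these 9, 7 were higher and 2, Epcam among them, lower in KO cells, none was called, and their log2 ratios had a median of 0.095. In the authors' Cuffdiff test 3 of the 9 had an unadjusted p under 0.05, against 6% of all tested rows. These were Epcam, lower (p = 0.02335 in the authors' deposited table), and Krt8 and Krt18, higher. Of 24 markers of fibroblasts, endothelium, leukocytes, muscle and nerve, 4 had a tested row (Col1a1, Acta2, Myh11 and Csf1r), with a summed level of 4.48 FPKM in WT cells and 5.69 in KO cells. The rows of these 4 span 553 bp (Col1a1) to 9372 bp (Myh11) and may cover only parts of the genes. Csf1r, a leukocyte receptor, was the only one called, lower in KO cells (0.791 to 0.2004 FPKM, q = 0.0187 in the authors' deposited table).

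None of the 10 junction genes passed the authors' Cuffdiff test at a q-value under 0.05, where 1.05% of all tested rows did (0.491% higher and 0.556% lower in KO cells). At an unadjusted p under 0.05, 2 of the 10 were below the threshold, Ctnnb1 and Jup, against 6% of all tested rows and 7.5% of the 8436 rows averaging 10 FPKM or more. In KO cells 6 members had the higher value and 4 the lower. The median log2((KO + 1)/(WT + 1)), a ratio with a pseudocount of 1 FPKM, was 0.02 over the members and 0.00 over the 18090 tested rows averaging 1 FPKM or more. The member ratios ran from −0.29 to 0.24 on this log2 scale. A p above the threshold does not show that a level was the same in both groups.

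**Figure D1:**
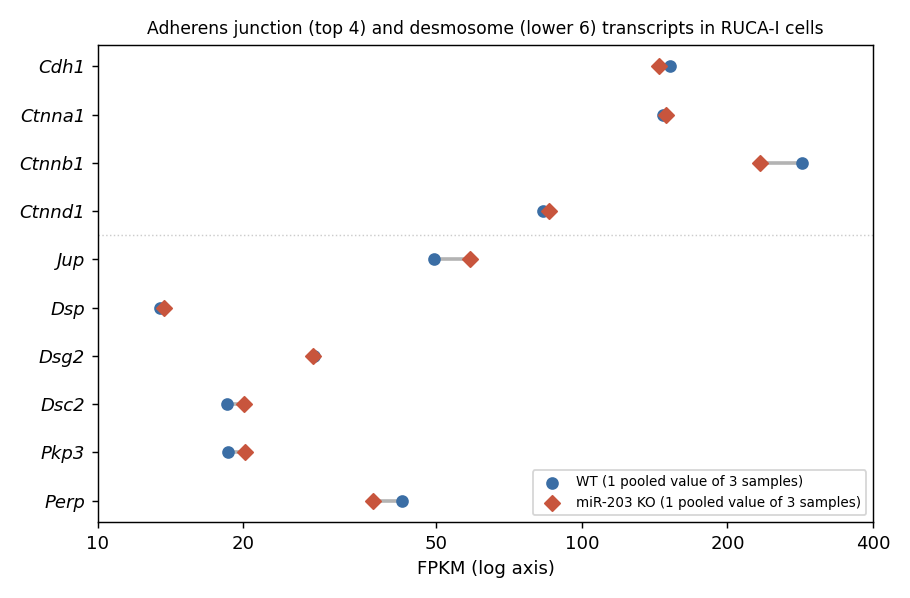
FPKM of the 10 junction genes on a log axis, with circles for WT and diamonds for KO cells, each 1 pooled value of 3 samples without error. The 4 adherens junction genes, on top, lie between 83.0 and 285 FPKM in WT cells and the 6 others between 13.4 and 49.6, and the widest gaps between the groups are those of Ctnnb1, Jup and Perp.

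Among the adherens junction genes, the levels per transcript length ran from beta-catenin down to p120-catenin in both groups. Cdh1, E-cadherin (rn6 chromosome 19, 38768475 to 38842573, as the authors list it), stood at 152 FPKM in WT cells and 144 in KO cells, a ratio of 0.95 with p = 0.526 and q = 0.997 in the authors' deposited table. Ctnna1, alpha-catenin (chromosome 18, 27923575 to 28056078), stood at 147 and 149 FPKM (p = 0.867 in the authors' deposited table). Ctnnd1, p120-catenin, which keeps cadherin at the cell surface (chromosome 3, 72001901 to 72052985), stood at 83.0 and 85.7 FPKM (p = 0.683 in the authors' deposited table). These 3 genes differed by 5% or less between the groups.

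Ctnnb1, beta-catenin (chromosome 8, 129601490 to 129628379), had the highest level of the 10 and the largest difference. It stood at 285 FPKM in WT cells and 233 in KO cells, a KO over WT ratio of 0.817, with p = 0.01005 and q = 0.397 in the authors' deposited table. A log2 ratio at least as far from 0 as its −0.29 was found in 12% of the rows averaging 10 FPKM or more. The summed FPKM of the 4 genes was 667 in WT cells and 612 in KO cells, and the Ctnnb1 difference accounts for most of that gap.

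Jup, plakoglobin, is the close relative of beta-catenin that sits in both kinds of contact (chromosome 10, 88279977 to 88307425). It stood at 49.6 FPKM in WT cells and 58.6 in KO cells, a ratio of 1.18, with p = 0.0262 and q = 0.678 in the authors' deposited table. Ctnnb1 and Jup thus had opposite directions, neither of which passed the test. Their FPKM ratio, Ctnnb1 over Jup, was 5.76 within WT and 3.97 within KO cells, a difference that was not tested.

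The remaining 5 desmosome genes were expressed at lower levels than Jup. Dsg2, desmoglein 2, the desmoglein of simple epithelium (chromosome 18, 15578883 to 15637694), stood at 27.9 FPKM in WT cells and 27.8 in KO cells. A second Dsg2 row with the same listed span stood at 21.2 and 20.3 FPKM. The span does not separate these rows, and the one with the higher mean was used. Dsc2, desmocollin 2, its partner cadherin (chromosome 18, 11826585 to 11878641), stood at 18.5 and 20.04 FPKM (p = 0.350 in the authors' deposited table). The FPKM ratio of Dsc2 over Dsg2 was 0.662 within WT and 0.7202 within KO cells.

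The plaque genes Dsp and Pkp3 showed small differences too. Dsp, desmoplakin, the link to keratin filaments (chromosome 17, 27286812 to 27334450), had the lowest level of the 10, with 13.4 FPKM in WT cells and 13.7 in KO cells (p = 0.807 in the authors' deposited table). Pkp3, plakophilin 3 (chromosome 1, 213888247 to 213897784), stood at 18.6 and 20.1 FPKM (p = 0.347 in the authors' deposited table). Perp, a tetraspan membrane protein of desmosomes and a target of p63 (chromosome 1, 14224385 to 14237091), stood at 42.5 FPKM in WT cells and 37.03 in KO cells, a ratio of 0.872 with p = 0.084 and q = 0.941 in the authors' deposited table. Of the 8 other tested rows within 1 Mb of Perp averaging 5 FPKM or more, 7 were lower in KO cells as well, with a median log2 ratio of −0.27 against −0.19 for Perp itself, and their part in its value was not tested. Around Ctnnb1 the median over 19 such rows was −0.05, with 12 of them lower in KO cells. Around Jup it was −0.03 over 35, with 20 lower. The part of these rows in either member's value was not tested. Among the 8436 tested rows averaging 10 FPKM or more, 4554 were lower.

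**Figure D2:**
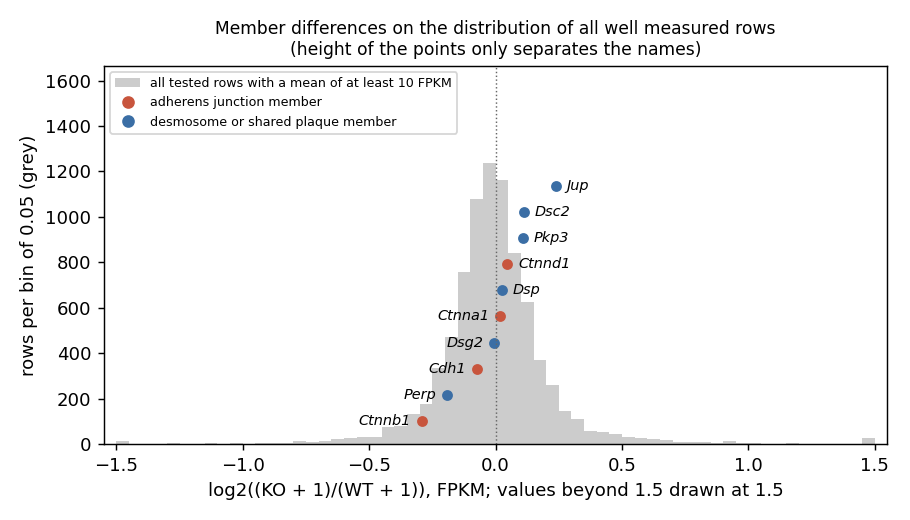
Histogram, in grey, of log2((KO + 1)/(WT + 1)) over the 8436 tested rows averaging 10 FPKM or more, with the 10 junction genes as named points whose height carries no value. The members run from −0.29 (Ctnnb1) to 0.24 (Jup), inside the bulk of the rows.

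The order of the 10 levels was the same in both groups, from Ctnnb1 down to Dsp, except that Cdh1 was above Ctnna1 in WT cells and below it in KO cells. Without values per sample it cannot be said which neighbours in this order differ beyond their spread. The proportions of the catenins to Cdh1 were not tested. Ctnna1 over Cdh1 was 0.969 within WT and 1.03 within KO cells, Ctnnd1 over Cdh1 was 0.546 and 0.593, and Ctnnb1 over Cdh1 was 1.88 and 1.61. The whole set of 10 summed to 838 FPKM in WT cells and 789 in KO cells, and the 6 genes other than those of the adherens junction summed to 170.5 and 177.

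**Figure D3:**
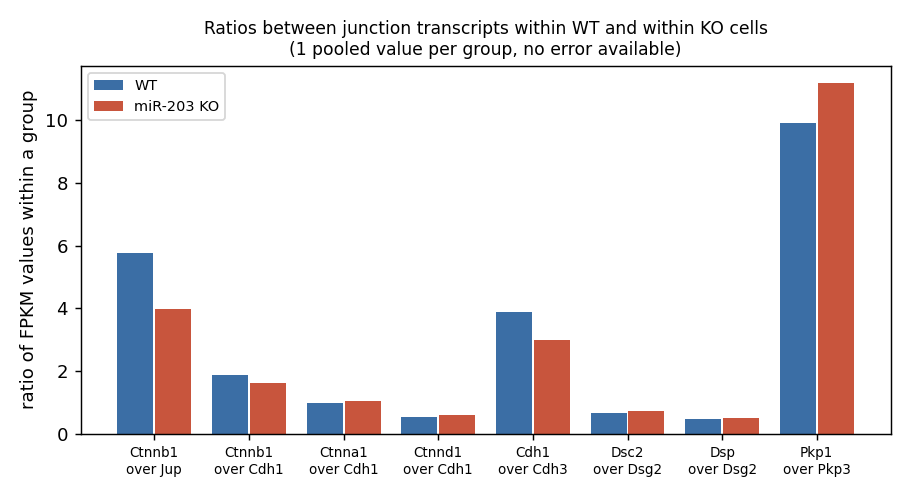
Bars give the ratio of the FPKM values of named pairs of junction genes within WT and within KO cells, from 1 pooled value per group and so without error. The pairs Ctnnb1 over Jup (5.76 and 3.97) and Cdh1 over Cdh3 (3.89 and 3.001) are lower in KO cells and Pkp1 over Pkp3 (9.90 and 11.2) is higher.

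Other genes of these contacts, from lists drawn up for this comparison, included 2 that passed the test. Among all tested rows 1.05% passed, and among those averaging 10 FPKM or more 1.4% did. Of 5 other cadherins and nectins with a tested row, 1 fell and 4 did not pass. Cdh16, Ksp-cadherin, an atypical cadherin with a short tail known from kidney (chromosome 19, 568101 to 592482), fell from 163 to 116 FPKM, a ratio of 0.707 with q = 0.00756 in the authors' deposited table. Cdh16 was thus at a level like that of Cdh1 in WT cells. Of 11 other rows within 1 Mb of Cdh16 averaging 5 FPKM or more, 8 were lower in KO cells, with a median log2 ratio of −0.24 against −0.497 for Cdh16, and their part in its value was not tested.

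Cdh3, P-cadherin, is the neighbour of Cdh1, 45339 bp away on chromosome 19 (38669336 to 38723136). It stood at 39.1 FPKM in WT cells and 48.1 in KO cells, with p = 0.0066 and q = 0.309 in the authors' deposited table, and did not pass. Cdh1 over Cdh3 was 3.89 within WT and 3.001 within KO cells, a difference that was not tested. Cdh6, K-cadherin, stood at 15.2 and 12.1 FPKM and Nectin2, an immunoglobulin-like adhesion protein of adherens junctions, at 47.0 and 48.8, and neither passed. Cdh2, N-cadherin, had no tested row under its symbol.

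Among 17 plaque proteins and actin linkers, 1 rose and 16 did not pass, with a median log2 ratio of 0.03. Lima1, also called EPLIN, which binds alpha-catenin and bundles actin (chromosome 7, 141428117 to 141528362), rose from 17.1 to 23.8 FPKM, a ratio of 1.40 with q = 0.00756 in the authors' deposited table. Over 36 rows within 1 Mb of Lima1 the median log2 ratio was −0.01, against 0.46 for Lima1. The actin crosslinkers Actn4 (643 FPKM in both groups) and Actn1 (177 in WT cells and 212 in KO cells, p = 0.0204 in the authors' deposited table) did not pass, nor did Ajuba, a LIM protein of these contacts (80.5 and 81.5 FPKM).

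The other desmosome genes averaged 26.9 to 205 FPKM over both groups. Of 4 with a tested row none passed, 3 were higher and 1 lower in KO cells, and the median log2 ratio was 0.24. Pkp1, plakophilin 1, best known from stratified epithelium, stood at 184 FPKM in WT cells and 225 in KO cells (p = 0.01115, q = 0.421 in the authors' deposited table), 9.90 times the FPKM of Pkp3 within WT and 11.2 times within KO cells. Pkp2, plakophilin 2, stood at 66.3 and 88.4 FPKM on a locus of 12436 bp and at 654 and 780 on a second row of 107 bp, for which FPKM is unreliable. Evpl, envoplakin, stood at 47.3 and 54.0 FPKM and Ppl, periplakin, at 28.1 and 25.7. No tested row stood under the symbols Dsg1, Dsg3, Dsc1 or Dsc3, the desmosomal cadherins of stratified epithelium.

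The keratins of simple epithelium, to which desmosomes attach, were all 4 higher in KO cells without passing, with a median log2 ratio of 0.19. Of the 18090 tested rows averaging 1 FPKM or more, 9236 were higher. Krt8 stood at 204 FPKM in WT cells and 241 in KO cells (p = 0.0288 in the authors' deposited table), on a row of 999 bp. Its filament partner Krt18 stood at 103 and 121 FPKM (p = 0.0379 in the authors' deposited table). Krt7 stood at 75.8 and 79.2 FPKM (p = 0.595 in the authors' deposited table) and Krt20 at 25.9 and 29.03 (p = 0.771 in the authors' deposited table).

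**Figure D4:**
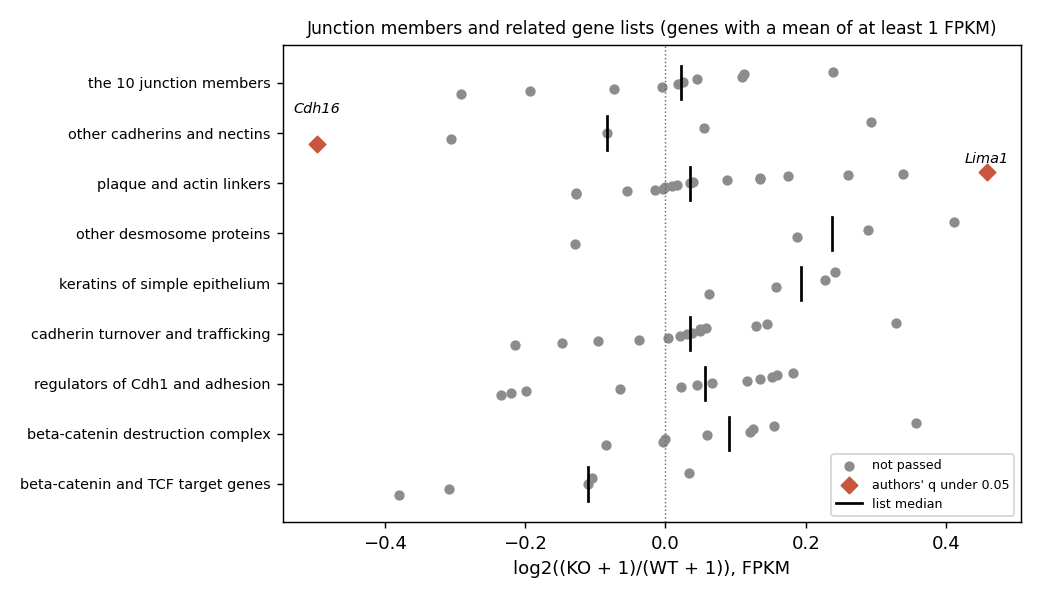
Each point is 1 gene averaging 1 FPKM or more, placed by log2((KO + 1)/(WT + 1)), with 1 line for the members and each of 8 lists of related genes, marker lists left out, and a black bar at the median. Of these genes only Cdh16 (lower) and Lima1 (higher), drawn as diamonds, had a q-value under 0.05 in the authors' table, and the medians shown run from −0.11 (targets of beta-catenin) to 0.24 (other desmosome genes).

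Genes that control the supply of junction proteins gave no call. Of 14 genes of cadherin turnover and trafficking none passed (median log2 ratio 0.03). Src, a kinase that phosphorylates catenins, was the farthest from 0 among them, with 64.4 FPKM in WT cells and 81.1 in KO cells (p = 0.0025, q = 0.161 in the authors' deposited table). Arf6, a GTPase of cadherin recycling, stood at 104 and 114 FPKM and Ptprf, a receptor phosphatase, at 79.1 and 81.2. Adam17, a shedding protease, shares its row with Ywhaq, so the 194 and 200.3 FPKM of that row belong to both.

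Transcription factors that act on Cdh1 and other adhesion genes showed no call among 15 with a tested row, and the median log2 ratio was 0.06 over the 12 averaging 1 FPKM or more. Grhl2, an activator of Cdh1, stood at 20.3 FPKM in WT cells and 21.0 in KO cells. Zeb1, a repressor, stood at 0.615 and 0.589 FPKM on the row used, which is 1 of 2 and spans 12151 bp. That row may not cover the whole gene. Snai1, Snai2, Zeb2 and Tp63 had no tested row under their symbols. Elf3 (68.3 and 75.9 FPKM), the splicing factor Esrp1 (50.2 and 55.2), Tcf3 (34.6 and 37.6) and Klf5 (25.7 and 21.7) did not pass either.

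Since Ctnnb1 had the largest difference of the members, genes that degrade or otherwise restrain beta-catenin and genes it activates were read beside it. Of 8 genes that belong to the destruction complex or restrain beta-catenin in another way, none passed (median log2 ratio 0.09). Amer1, a scaffold that binds APC, came nearest, with 7.30 FPKM in WT cells and 9.63 in KO cells (p = 0.00055, q = 0.0514 in the authors' deposited table). Gsk3a stood at 211 and 220 FPKM on its row, Csnk1a1 at 85.6 and 85.3, Fbxw11 at 36.2 and 36.1 and Gsk3b at 20.03 and 22.4. Of 17 TCF target genes, 11 had no tested row and none of the other 6 passed. Of the 5 averaging 1 FPKM or more, 4 were lower in KO cells (median log2 ratio −0.11). Among all 18090 tested rows at that level, 8854 were lower. Axin2, the feedback target of this pathway, stood at 2.97 and 2.05 FPKM (p = 0.65 in the authors' deposited table). The authors' log2 fold for Axin2 was −0.22, which does not match these FPKM values, a KO over WT ratio of 0.691. Even with the pseudocount, which pulls the value toward 0, the log2 ratio was −0.38. The mismatch was not confined to Axin2. Authors' log2 folds also did not match the FPKM ratios for the longer Pkp2 row (0.446 against a ratio of 1.334), Klf5 (−0.257 against 0.844) and Myh11 (1.58 against 2.33). Rnf43 stood at 3.37 and 2.53 FPKM, Myc at 58.2 and 53.8, Cd44 at 135 and 125.5 and Ccnd1 at 203.4 and 208.

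Promoter sequences were read for a motif in the members that had one. The letters CAGGTG, or CACCTG on the other strand, are the E-box bound by the Snail and Zeb repressors and by other factors. They were searched in the 250 bases before the annotated start (RefSeq, GRCr8), where 7 of the 10 members had a sequence and Cdh1, Ctnna1 and Pkp3 were not searched. The motif was present in 5 of the 7, Jup, Dsp, Dsg2, Dsc2 and Perp, and these letters were not in the windows of Ctnnb1 and Ctnnd1. It was present in 15.9% of all 33469 promoters of the same length, and in 14.4% of the 5436 whose genes had a mean of at least 10 FPKM here. A match is a description of letters and not a measured site. The stretches are shown 5′ to 3′ on the gene's strand with the motif in capitals. They lie on chromosome 10 (85827508 to 85827547, − strand) for Jup, 17 (26877184 to 26877223, −) for Dsp, 18 (12121163 to 12121202, +) for Dsg2, 18 (11757467 to 11757506, −) for Dsc2 and 1 (15361559 to 15361598, +) for Perp.
Jup: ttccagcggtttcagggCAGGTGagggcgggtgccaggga
Dsp: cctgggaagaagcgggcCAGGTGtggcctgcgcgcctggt
Dsg2: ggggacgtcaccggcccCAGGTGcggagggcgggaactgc
Dsc2: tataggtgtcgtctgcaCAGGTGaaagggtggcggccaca
Perp: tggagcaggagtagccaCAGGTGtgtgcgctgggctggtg

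The 5 genes with the motif did not share a direction. Their log2 ratios were 0.24 for Jup, 0.03 for Dsp, 0.00 for Dsg2, 0.11 for Dsc2 and −0.19 for Perp.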

How the data were processed

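Total RNA of 3 WT and 3 miR-203 KO samples was made into stranded libraries by the dUTP method, per the labels' protocols. TopHat (0.9 as listed), Cufflinks 2.2.1, Cuffdiff 2.2.1.3 and rn6 are named per the submitters' processing notes; for the annotation, nothing is given in the sources used here. Per the file headers, the authors deposited 1 FPKM value per gene row and group, a log2 fold, a test statistic (a score), a p-value and a q-value. FPKM divides by length, so very short loci are unreliable. The p-values are all multiples of 5e-05.

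Here log2((KO + 1)/(WT + 1)) was computed with a pseudocount of 1 FPKM, which understates changes of low genes. No test was added, because the table holds no values per sample. Medians used rows averaging 1 FPKM or more, and a gene was called at q under 0.05. The members and lists were chosen with earlier results of these data known. Named are all members, and from each list the called genes, those with the highest mean up to 4 in all, and the one with the largest log2 ratio, plus Tp63, Snai1, Snai2, Zeb1, Zeb2 and Grhl2; names of genes without a tested row, and Col1a1, Acta2, Myh11, Epcam and Ywhaq, were added afterwards. One gene that the rule takes is not reported here. The adjustment and the ratios were tested on simulated data. Alternatives were other pseudocounts, scalings, filters and row choices. Python 3.11.15, pandas 2.3.3, NumPy 2.4.6, SciPy 1.17.1 and Matplotlib 3.10.9 were used.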

Additional observations from a re-analysis of the deposited data

How the results depend on the processing

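None of the 10 members was called when the Benjamini-Hochberg adjustment was repeated over rows averaging 1 FPKM or more (smallest adjusted p of a member 0.321) or 5 FPKM (0.311), or with a normal p from the authors' test statistic. A q under 0.01 and the row of highest mean could not add a call, since the first is stricter and the second takes the same rows. The normal p, and the median without Ctnnb1 and Jup, were chosen after seeing the data. Over all tested rows the 277 calls became 173 when adjusted over rows averaging 5 FPKM or more, where fewer rows are tested, 175 at q under 0.01 and 70 with the normal p. The median log2 ratio of the members lay between 0.02 and 0.03 under 9 alternatives. Of these, the filters and the row of highest mean use the same member values and so cannot move it. Leaving out Ctnnb1 and Jup removes the lowest and the highest member ratio, which cannot move a median either. The sum over rows alters Dsg2 alone, whose ratio stayed below the median. Of 60 member ratios under 6 alternatives, the same limits applying to both row choices, none moved by over 0.05, and 2 changed sign, both of Dsg2, whose ratios ran from −0.03 to 0.00. No paired analysis was possible because the 3 samples of each group are pooled into 1 value, and for the same reason leaving out each replicate was not run.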

Other observations

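The p-values of the members in the authors' deposited table were smaller than a normal reading of the deposited test statistic would give. For Ctnnb1 the statistic was −1.48 and p = 0.01005 in the authors' deposited table, where a two-sided normal p of that statistic is 0.139. For Jup the statistic was 1.27 and p = 0.0262 in the authors' deposited table, where the normal p is 0.204. By the normal reading no member was under 0.05. How the authors' p-values were computed from the statistic is not given in the sources used here.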
